A study of Mus musculus with 12 samples.

Results

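The 9 genes described here, P2ry12, Tmem119, Cx3cr1, Csf1r, Sall1, Siglech, Gpr34, Fcrls and Olfml3, mark microglia at rest and were taken by symbol from the 25124 genes listed in each of the FPKM tables of a mouse retina RNA-seq study. All 9 were listed in both tables, with the same transcript. Libraries came from whole retinas of wild-type C57BL/6J mice, 12 in all, in 6 groups of 2. In the single-elevation series, 1 eye of each animal, at an age of 3 or 18 months, was held at an intraocular pressure (IOP) of 30 mmHg for 1 h and its retina was collected 2 days later (3mo IOP, 18mo IOP), and the untreated contralateral eyes were the controls (3mo control, 18mo control). In the repeated series, 4 such elevations were given to animals whose age was 3 months when treatment began, each of 30 mmHg for 1 h, biweekly and in 1 eye, and retinas were collected 2 days after the last (4xIOP), with the contralateral eyes as 4xIOP control. A control eye therefore belonged to an animal that had been treated in the other eye, and no group came from animals without treatment. The study describes the libraries of a group as biological replicates, and the labels do not tie replicate numbers to animals.

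Microglia are the resident macrophages of the retina. Their survival depends on signalling through Csf1r, and TGF-beta signalling together with the factor Sall1 maintains their resting state. That state is recognised by surface receptors such as P2ry12 and Tmem119, several of which are known to be lowered when microglia become activated, and most of which are scarce in monocytes and neutrophils that enter tissue from the blood. Csf1r and Cx3cr1 are also made by monocytes and other macrophages.

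Depth lay between 39766236 and 59455051 tags per library, with 44.2% to 71.5% of them in exons. The ratio of short (under 1000 bases) to long (at least 4000 bases) transcripts reached 1.89 and 4.70 in 3mo control and 3.26 and 2.99 in 3mo IOP, against 1.20 to 1.36 at 18 months and 1.45 to 2.20 in the repeated series. Marker genes of pigment epithelium summed to between 105 and 299 FPKM in the 3mo libraries and to at most 8.04 FPKM at 18 months. The 18mo IOP libraries stood apart from each other, with a summed level of the 9 genes of 63.6 FPKM in replicate 1 and 18.9 FPKM in replicate 2. The members' counts of calls and medians that rest on these 18mo IOP libraries are given with and without them. Single genes beside the members are given by their value in each, and other cell types as sums or counts only.

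The genes were low in whole retina, and each was detected in every library. Their values lay between 0.0360 FPKM, which was 8 reads (Sall1, in 4xIOP control replicate 2), and 19.1 FPKM, which was 4044 reads (Csf1r, in 18mo IOP replicate 1). The fewest reads were 6, for Fcrls in 4xIOP control replicate 2. Because 3 reads of a member corresponded to between 0.00961 and 0.0436 FPKM, no value fell under that limit of measurement. Sall1 had a mean under 0.5 FPKM in both series and Siglech in the repeated series, so that 8 members were tested in the single-elevation series and 7 in the repeated one. FPKM is scaled per kilobase, and levels of genes are set against each other on that scale. The short-to-long ratio differed between the ages, and its part in the order of genes was not tested. The transcripts of P2ry12, Olfml3 and Csf1r are 2356, 1731 and 3851 bases long. P2ry12 and Olfml3 had the highest mean levels in 3mo control and did not separate from each other (2.65 ± 0.902 and 2.17 ± 0.122 FPKM, SD, n = 2). In 18mo control the leading genes were Csf1r and Olfml3 (7.46 ± 1.18 and 6.46 ± 1.67 FPKM, SD, n = 2), which overlapped, and P2ry12 followed below both. In 4xIOP, Csf1r, Olfml3, Fcrls and Cx3cr1 led, each overlapping its neighbour, while P2ry12, Gpr34 and Siglech stood below Tmem119. Sall1 had the lowest mean in every group. Of the 8 neighbouring pairs in the order, 3 overlapped in 3mo control, 2 in 18mo control, 8 in 18mo IOP and 6 in 4xIOP.

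**Figure D1:**
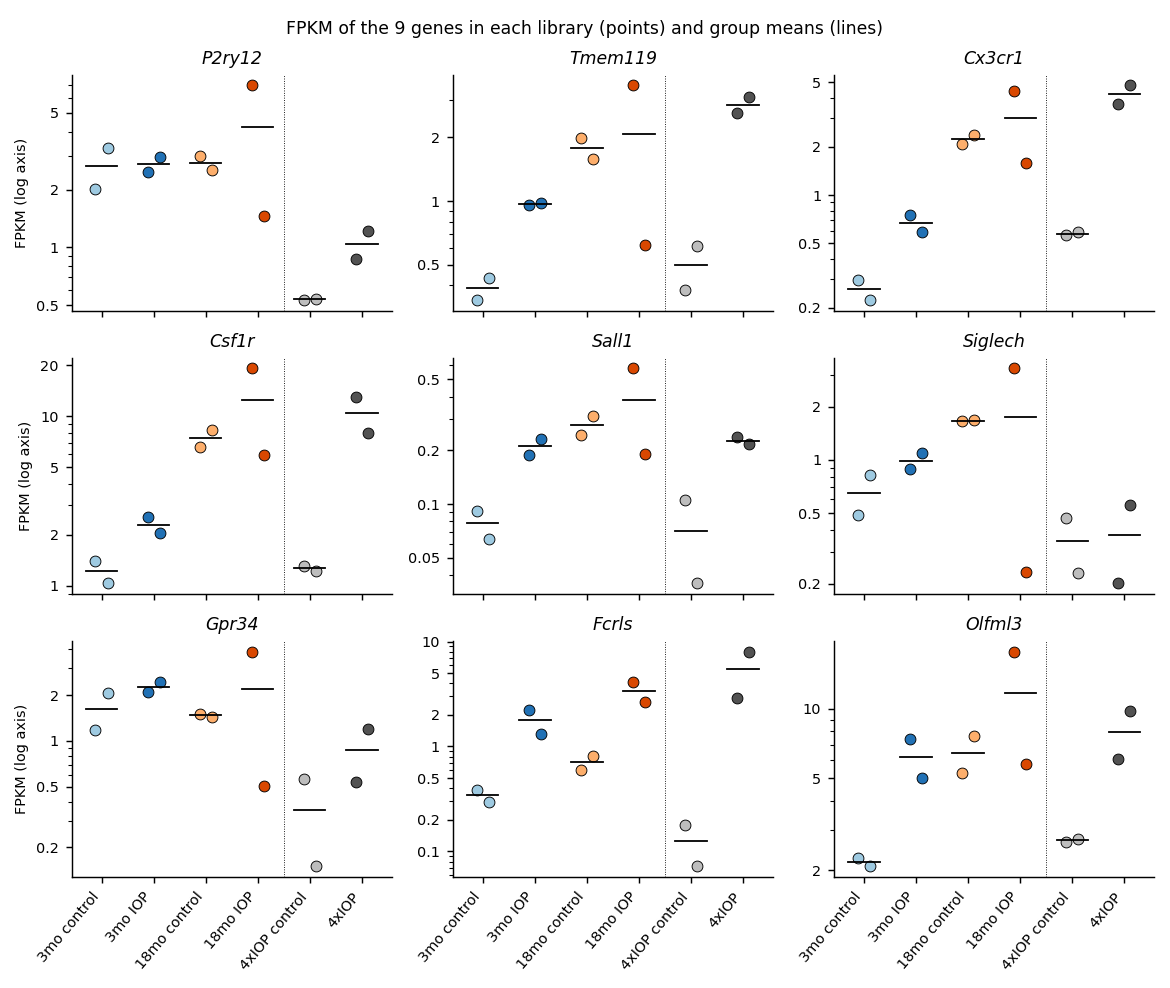
FPKM of each gene (log axis, a different range in each panel) in the 12 libraries, with points for libraries, lines for the mean of the 2 libraries of a group, and a dotted line between the separately normalized series. Csf1r and Cx3cr1 lie higher at 18 than at 3 months, the 18mo IOP libraries lie far apart for 8 of the 9 genes, and Siglech in 4xIOP overlaps its control.

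P2ry12 lies on the minus strand of chr3:59216271-59262985 (mm10), inside the span of Med12l on the opposite strand, and Gpr34 lies on chrX:13632769-13640858 inside the span of Cask on the opposite strand. Reads were counted by strand, so reads of these host genes were not meant to enter. No other annotated gene overlapped these 6 members: Tmem119 (chr5:113793729-113800396), Cx3cr1 (chr9:120048683-120068296), Sall1 (chr8:89027243-89044162), Siglech (chr7:55768184-55778925), Fcrls (chr3:87250965-87263524) and Olfml3 (chr3:103735394-103738001).

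RefSeq promoters (GRCm38.p6) were at hand for 6 of the 9 genes. The 250 bases before the start are shown for Fcrls and Cx3cr1, which rose in 4xIOP, for P2ry12, which was not called there, and for Siglech, which was too low to be tested there. Capitals mark the letters GAGGAAG on either strand (CTTCCTC), a form of the site of PU.1, the myeloid factor encoded by Spi1.
Fcrls (chr3:87263525-87263774, minus strand): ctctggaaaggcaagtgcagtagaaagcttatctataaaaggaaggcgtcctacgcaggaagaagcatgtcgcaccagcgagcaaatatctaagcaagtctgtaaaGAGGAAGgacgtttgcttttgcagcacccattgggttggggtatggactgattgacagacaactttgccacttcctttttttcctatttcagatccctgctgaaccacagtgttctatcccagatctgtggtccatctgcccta
Cx3cr1 (chr9:120068297-120068546, minus strand): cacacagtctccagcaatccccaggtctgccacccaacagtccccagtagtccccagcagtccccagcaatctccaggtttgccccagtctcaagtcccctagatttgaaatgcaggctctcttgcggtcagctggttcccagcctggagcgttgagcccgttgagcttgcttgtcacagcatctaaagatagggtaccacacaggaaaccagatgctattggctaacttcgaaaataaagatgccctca
P2ry12 (chr3:59262986-59263235, minus strand): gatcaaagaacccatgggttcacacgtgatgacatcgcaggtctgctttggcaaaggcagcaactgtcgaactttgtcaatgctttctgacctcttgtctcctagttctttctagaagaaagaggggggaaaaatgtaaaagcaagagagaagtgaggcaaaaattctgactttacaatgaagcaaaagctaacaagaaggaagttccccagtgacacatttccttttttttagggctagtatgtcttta
Siglech (chr7:55767934-55768183, plus strand): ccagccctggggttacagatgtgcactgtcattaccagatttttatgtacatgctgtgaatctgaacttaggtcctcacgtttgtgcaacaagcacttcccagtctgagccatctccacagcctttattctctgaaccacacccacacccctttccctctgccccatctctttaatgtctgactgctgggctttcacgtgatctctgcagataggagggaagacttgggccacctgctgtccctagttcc
Of the 6 genes, 1 (Fcrls) held the letters, starting 144 bases before the start, against 10.6% of the 32851 promoters in the table over the same 250 bases. The match is a description of the letters in this window only.

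The first comparison asked how untreated retinas differed with age. Cx3cr1, Csf1r and Olfml3 rose from 3mo control to 18mo control, P2ry12 and Gpr34 were not called and had wide intervals, and no member fell. Of 8 tested members, 3 were called higher and 0 lower, where 11.6% of the 13731 tested genes were called higher and 11.6% lower. The members' median log2 fold change was 1.14, against 0.16 over all tested genes. In bulk tissue, a different number of microglia and a different amount of RNA per microglial cell cannot be told apart.

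Csf1r (chr18:61105572-61131139, plus strand) encodes the receptor for the survival factors CSF1 and IL-34, and the microRNA gene Mir6983 lies within its span on the same strand. It was at 1.40 and 1.04 FPKM in 3mo control and at 6.63 and 8.30 FPKM in 18mo control. Both old libraries stood well above both young ones, with a log2 fold change of 2.21 ± 0.45 (SE, adjusted p = 0.00871). Cx3cr1, the receptor for the neuronal chemokine fractalkine, was at 0.295 and 0.223 FPKM at 3 months and at 2.07 and 2.36 FPKM at 18 months. Its log2 fold change was 1.84 ± 0.37 (SE, adjusted p = 0.00831), again without overlap. The secreted olfactomedin-like protein gene Olfml3 went from 2.25 and 2.08 FPKM to 5.27 and 7.64 FPKM, a log2 fold change of 1.36 ± 0.45 (SE, adjusted p = 0.0381).

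Tmem119, a transmembrane protein used as a microglial marker, stood at 0.341 and 0.435 FPKM in 3mo control and at 1.99 and 1.57 FPKM in 18mo control. These groups did not overlap, and the adjusted p of 0.0550 for a log2 fold change of 1.36 missed the threshold. Values of the lectin gene Siglech were 0.486 and 0.821 FPKM against 1.65 and 1.68 FPKM, and its log2 fold change of 0.92 was not called (adjusted p = 0.251). Sall1, the zinc-finger factor, was not tested and had 0.0920 and 0.0640 FPKM against 0.243 and 0.313 FPKM. The scavenger receptor-like gene Fcrls had 0.389 and 0.296 FPKM against 0.599 and 0.820 FPKM (log2 fold change 0.52, adjusted p = 0.160). Among the 8 tested members, 6 had both old libraries above both young ones, where 45.7% of all tested genes did.

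The ADP receptor gene P2ry12 did not follow this order, with 2.01 and 3.29 FPKM in 3mo control and 3.00 and 2.52 FPKM in 18mo control. The groups overlapped and the log2 fold change was 0.076, with a 95% interval from -1.15 to 1.30. Gpr34, a receptor for lysophosphatidylserine, was at 1.18 and 2.07 FPKM at 3 months and at 1.51 and 1.43 FPKM at 18 months (log2 fold change -0.079, 95% interval from -1.40 to 1.25). Directions of both depended on the processing: P2ry12 was at -0.072 with median-of-ratios size factors and Gpr34 at 0.082 with the length trend removed. With length and GC trends both removed, a setting chosen after seeing the data, they stood at 0.81 (adjusted p = 0.258) and 0.90 (adjusted p = 0.251) and were not called.

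**Figure D2:**
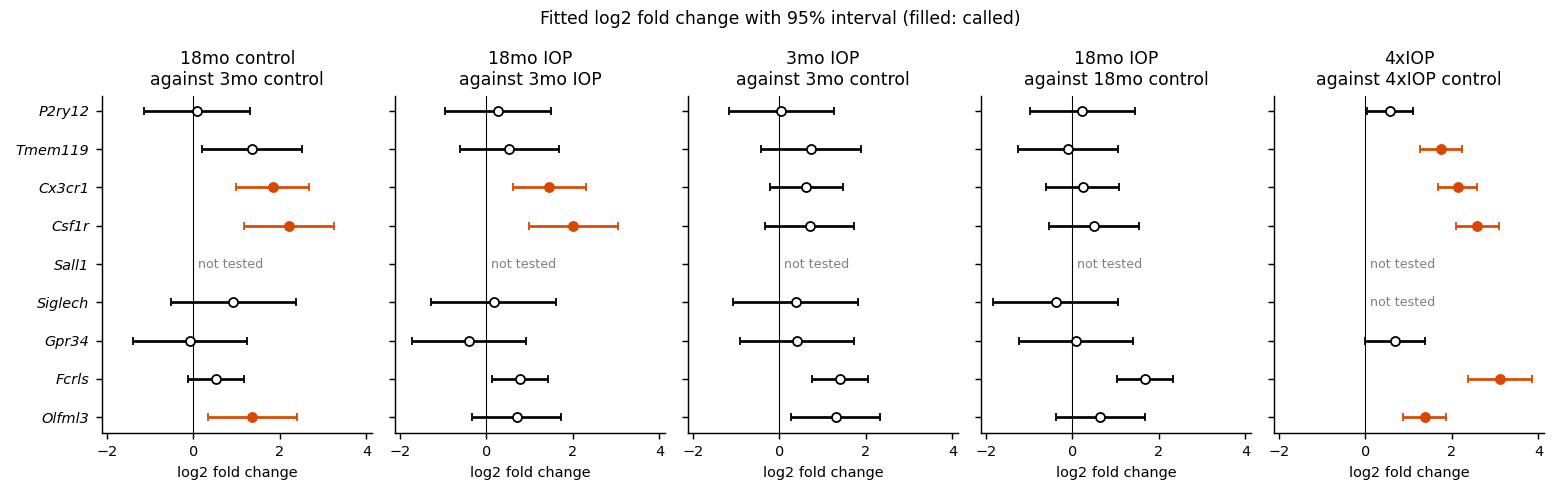
Fitted log2 fold change (x axis) of each gene (y axis) in 5 comparisons, with 95% intervals from limma, filled points for called genes and a note for genes under the filter. Csf1r and Cx3cr1 are called in both age comparisons and in 4xIOP, and no gene is called after a single elevation.

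Over the fits that left out 1 library, the log2 fold change with age stayed between 1.76 and 1.92 for Cx3cr1 and between 2.06 and 2.36 for Csf1r, while the calls varied. Without 18mo control replicate 2, 0 of the 3 were called, with an adjusted p of 0.0555 for Cx3cr1 and 0.0572 for Csf1r, and the calls higher over all genes were 607 against 1595. Olfml3 was called in 9 of 16 alternatives. With the trend of the values with transcript length removed, 4 members were called, Tmem119 being the fourth (adjusted p = 0.0489). With length and GC trends both removed, and likewise by voom on recovered reads, 2 were called, Cx3cr1 and Csf1r. Over all genes, the calls were 1595 higher and 1590 lower as deposited and 1061 higher and 1971 lower with size factors. Summed levels of endothelial markers were 9.93 and 13.4 FPKM in 3mo control and 67.3 and 67.6 FPKM in 18mo control, with 6 of 7 genes called higher, and 5 of the 5 tested pigment epithelium genes were called lower. Of tested genes, 4 of 4 for pericytes and 4 of 6 for Muller glia were called higher, and 4 of 6 for retinal ganglion cells lower. Border macrophage markers summed to 4.20 to 7.56 FPKM and 4.35 to 5.14 FPKM, with 0 of the 4 tested called and Pf4 listed at 0 in 18mo control. The part of these cells, and of the transcript length difference between the ages, in the members' change was not tested.

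Other genes were counted from lists of microglial genes and of their ligands and partners. Values of whole retina do not show which cells made these transcripts. Of 14 pan-myeloid genes, 7 were called higher and 0 lower with age. The largest was the lysosomal membrane gene Laptm5 (log2 fold change 2.94), and C1qa, which starts the classical complement cascade, went from 5.17 and 8.09 FPKM to 22.9 and 25.6 FPKM (log2 fold change 1.83, adjusted p = 0.00574). Among 11 tested microglial transcription factor genes 7 were called higher, including Spi1 (1.62) and Smad3 (1.59). The 8 tested genes of a second homeostatic list were mixed, with 2 called higher and 3 lower. In that list the transporter gene Slco2b1 rose by 1.88, while Hpgd, a prostaglandin-degrading enzyme, fell by 2.59. Among 20 activation genes 5 were called higher, led by the chemokines Ccl3 (4.76) and Ccl4 (4.14), and 3 lower, among them Spp1 (-3.15). The ligand gene Csf1 rose by 1.38 (adjusted p = 0.00560), whereas Il34 (-0.43, adjusted p = 0.250) and the Cx3cr1 ligand gene Cx3cl1 (0.67, adjusted p = 0.216) were not called. Tgfb1 was at 0.94 on the log2 scale (adjusted p = 0.0469), under the fold threshold.

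The same age comparison in treated eyes used the other eye of animals of the same design, possibly the same animals, and is not independent. It gave 2 called members, Csf1r (log2 fold change 2.01 ± 0.45, SE, adjusted p = 0.0125) and Cx3cr1 (1.45 ± 0.37, SE, adjusted p = 0.0177), where 10.2% of tested genes were called higher. The members' median was 0.62, against 0.09 over all tested genes, and it was -0.23 without 18mo IOP replicate 1 and 1.40 without replicate 2. Csf1r was at 2.53 and 2.04 FPKM in 3mo IOP and at 19.1 and 5.88 FPKM in 18mo IOP, and Cx3cr1 was at 0.746 and 0.589 FPKM against 4.41 and 1.58 FPKM. Fcrls was not called (0.79, adjusted p = 0.0529), though it was the third of 3 members with both old libraries above both young ones, where 43.2% of all tested genes were. The count depended on which 18mo IOP library was kept. Without replicate 2, 7 members were called higher, as were 1297 of 13715 genes in that fit (9.46%). Without replicate 1, where 1350 of 13681 genes were called higher and 1433 lower, Csf1r was called higher while Gpr34 (-1.46) and Siglech (-1.02) were called lower. Leaving out either 3mo IOP library gave 0 called members, and the calls higher over all genes were 534 and 379 in those fits, against 1407 with all libraries. Of tested marker genes, 6 of 7 for endothelium, 4 of 4 for pericytes and 5 of 6 for Muller glia were called higher, and 6 of 6 for retinal ganglion cells and 5 of 5 for pigment epithelium lower. The part of these cells in the members' change with age was not tested.

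A single elevation in young retina was compared next. No member was called in 3mo IOP by limma (0 of 8 tested, 2 with an unadjusted p under 0.05, 0 by voom on recovered reads), where 0.568% of tested genes were called higher. That share was 78 genes, and the calls higher over all genes were 20 with size factors and 3 by voom. Of the 8 tested members, 7 had both 3mo IOP libraries above both controls, against 28.6% of all tested genes. The margin was narrow for Gpr34, with a lowest treated value of 2.08 FPKM and a highest control of 2.07 FPKM. For Siglech these values were 0.885 and 0.821 FPKM. The members' median log2 fold change was 0.66, against 0.13 over all genes.

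Fcrls had the largest fold change of the members, at 0.389 and 0.296 FPKM in the young controls and 2.22 and 1.32 FPKM after the elevation (log2 fold change 1.40 ± 0.28, SE, adjusted p = 0.0902). Olfml3 was at 2.25 and 2.08 FPKM against 7.39 and 5.02 FPKM (1.31 ± 0.45, SE, adjusted p = 0.386). Tmem119 stood at 0.341 and 0.435 FPKM against 0.956 and 0.974 FPKM, and its log2 fold change of 0.72 had a 95% interval from -0.43 to 1.88. Csf1r (0.70), Cx3cr1 (0.62), Gpr34 (0.41) and Siglech (0.38) had adjusted p values from 0.796 to 0.996. P2ry12 overlapped, with 2.01 and 3.29 FPKM against 2.45 and 2.95 FPKM, at 0.049 on the log2 scale with a 95% interval from -1.17 to 1.27, and its sign turned with size factors (-0.13). Sall1, not tested, had 0.189 and 0.233 FPKM in 3mo IOP. The 3mo control libraries enter both this comparison and the age comparison of controls.

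Beside the members, 14 of 14 pan-myeloid genes had both 3mo IOP libraries higher and 1 was called, the Fc receptor chain gene Fcer1g (1.51, adjusted p = 0.0372). C1qa was at 21.4 and 16.8 FPKM (1.48, adjusted p = 0.0908). Irf8, a factor needed for the microglial lineage, was the called gene of its list (1.38, adjusted p = 0.0325), and the activation genes Cd52 (2.18) and Axl (1.36) were called. The calls of Fcer1g, Irf8, Cd52 and Axl were lost without 3mo control replicate 1 and without 3mo IOP replicate 1. Each of those fits assumed that a lone library varied like the others. Csf1 was at 1.12 (adjusted p = 0.0790). Monocyte and neutrophil markers summed to 2.42 and 11.1 FPKM in the controls and to 3.61 and 8.23 FPKM after the elevation, with 0 of the 4 tested called. Mmp8, Cxcr2 and Clec4e were listed at 0 in 3mo control and Ly6g in 3mo IOP. Border macrophage markers summed to 4.20 and 7.56 FPKM in the controls and to 6.63 and 13.9 FPKM after the elevation. Of the 4 tested, 0 were called, and Pf4 (1.76) and Ms4a7 (1.09) had both treated libraries higher. The part of these cells in the members' values was not tested.

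In old retina the single elevation gave 0 called members by limma (1 with an unadjusted p under 0.05, 0 by voom), where 0.117% of tested genes were called higher. The count was also 0 without 18mo IOP replicate 1 and without replicate 2, with 134 and 6 of all genes called higher. Fcrls was the member whose groups did not overlap, at 0.599 and 0.820 FPKM in 18mo control and 4.15 and 2.67 FPKM in 18mo IOP (log2 fold change 1.67 ± 0.28, SE, adjusted p = 0.0933). It was at 1.40 without 18mo IOP replicate 1 and at 1.95 without replicate 2, called in neither case. Its count of 1 in 8 compares with 36.5% of all tested genes. The other members had 18mo IOP replicate 1 above both controls and replicate 2 below both, or between them for Olfml3. For Siglech these values were 3.28 and 0.231 FPKM against 1.65 and 1.68 FPKM, for P2ry12 6.96 and 1.46 FPKM against 3.00 and 2.52 FPKM, and for Gpr34 3.86 and 0.506 FPKM against 1.51 and 1.43 FPKM. Tmem119 was at 3.52 and 0.619 FPKM against 1.99 and 1.57 FPKM. The members' median of 0.24 was -0.56 without replicate 1 and 1.17 without replicate 2. Monocyte and neutrophil markers summed to between 1.13 and 1.78 FPKM in 18mo control and between 5.07 and 6.01 FPKM in 18mo IOP, with 0 of the 4 tested called. Border macrophage markers summed to 4.35 to 5.14 FPKM and 6.06 to 10.3 FPKM, with 3 of the 4 tested higher in both treated libraries and 0 called. Haemoglobin and other red cell markers summed to 166 to 426 FPKM in the controls and 44.3 to 54.3 FPKM after the elevation. The part of these cells in the members' values was not tested.

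The summed level of pan-myeloid genes also differed between the 18mo IOP libraries, with 427 FPKM in replicate 1 and 213 FPKM in replicate 2, against 134 and 152 FPKM in the controls. Of 14, 13 had both 18mo IOP libraries above both controls, with 0 called. Fcer1g was at 17.9 and 12.2 FPKM against 7.64 and 6.43 FPKM (1.03, adjusted p = 0.15). C1qa was at 73.1 and 42.7 FPKM against 22.9 and 25.6 FPKM (1.19, adjusted p = 0.178), and Irf8 at 1.86 and 1.87 FPKM against 0.692 and 0.596 FPKM (1.05, adjusted p = 0.115). The activation gene Axl was at 9.91 and 11.7 FPKM against 4.01 and 4.85 FPKM (1.19, adjusted p = 0.0985). The integrin chain genes Itgb8 and Itgav, whose product activates TGF-beta, were at 1.19 and 1.07 on the log2 scale (adjusted p = 0.0824 and 0.0903). Itgb8 had 4.84 and 5.09 FPKM against 1.98 and 1.80 FPKM, and Itgav 15.9 and 14.7 FPKM against 7.48 and 6.54 FPKM. No interaction of IOP with age passed for a member (0 of 8, 0 with an unadjusted p under 0.05, 0 by voom, with 0% of all genes called), so a different response at the ages was not shown. Without either 18mo IOP library the count was 0 as well.

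**Figure D3:**
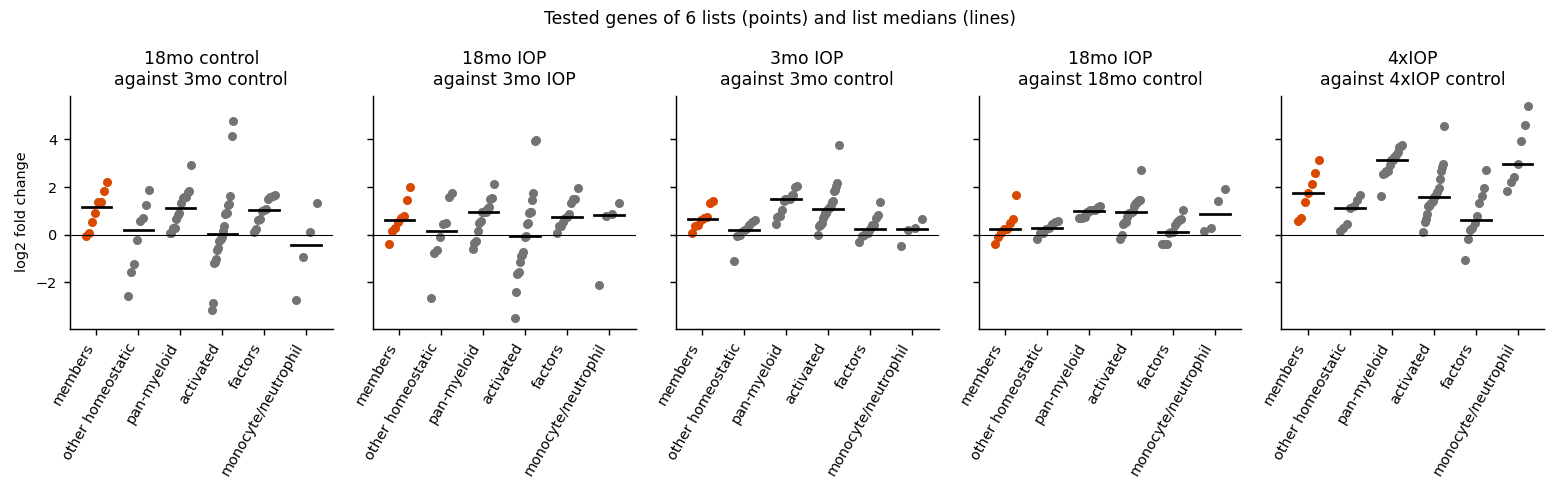
Log2 fold change (y axis) of each tested gene of 6 lists (x axis), with points for genes and lines for list medians, in 5 comparisons. The 7 tested members lie above 0 in 4xIOP, where Tmem119, Fcrls and Gpr34 passed the filter through 4xIOP alone. List medians there include such genes and are not ranked.

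Repeated elevations were compared with their contralateral eyes within the second table, since the tables were normalized separately. Csf1r, Cx3cr1, Tmem119, Fcrls and Olfml3 rose in 4xIOP, while P2ry12 and Gpr34 were not called and Siglech and Sall1 were too low to test. Of 7 tested members, 5 were called higher and 0 lower, where 5.45% of the 13718 tested genes were called higher and 0.693% lower. In 6 of the 7 both 4xIOP libraries lay above both controls (27.7% of tested genes), and the median log2 fold change was 1.76 (0.10 over all tested genes). Fcrls, Gpr34 and Tmem119, whose own value is that median, passed the filter on low values only through 4xIOP. Their means had to be higher there, so neither these counts nor the median are support. Csf1r, Cx3cr1, Olfml3 and P2ry12 passed the filter in the controls too.

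Fcrls went from 0.178 and 0.0720 FPKM, which were 14 and 6 reads, to 2.92 and 8.01 FPKM, a log2 fold change of 3.12 ± 0.34 (SE, adjusted p = 4.34e-05). Its treated libraries differed from each other by more than those of the other called genes. Csf1r rose from 1.32 and 1.23 FPKM to 12.9 and 7.97 FPKM (2.59 ± 0.23, SE, adjusted p = 8.93e-06), and Cx3cr1 from 0.563 and 0.586 FPKM to 3.68 and 4.80 FPKM (2.13 ± 0.21, SE, adjusted p = 2.13e-05). Tmem119 was at 0.380 and 0.613 FPKM against 2.60 and 3.11 FPKM (1.76 ± 0.23, SE, adjusted p = 0.000189), with no overlap. Olfml3 rose from 2.66 and 2.74 FPKM to 6.10 and 9.84 FPKM (1.37 ± 0.23, SE, adjusted p = 0.00170).

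P2ry12 was at 0.534 and 0.541 FPKM in 4xIOP control and at 0.869 and 1.22 FPKM in 4xIOP. The groups did not overlap, but the log2 fold change of 0.56 was not called (95% interval from 0.03 to 1.09, adjusted p = 0.274). Gpr34 had 0.558 and 0.15 FPKM against 0.536 and 1.20 FPKM and overlapped (0.68, adjusted p = 0.344). Siglech, not tested, overlapped at 0.467 and 0.229 FPKM against 0.201 and 0.554 FPKM. Sall1 was at 0.105 and 0.0360 FPKM against 0.237 and 0.216 FPKM, low values without overlap. Without each library in turn, the log2 fold change of Csf1r stayed between 2.26 and 2.92. That of Cx3cr1 stayed between 1.96 and 2.30, and that of Olfml3 between 1.04 and 1.69. These genes passed the filter in the controls too, whereas Tmem119 and Fcrls did not.

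The ratio of Csf1r to P2ry12 within a library was chosen after the values were seen and was not tested. It was 0.696 and 0.316 for 3mo control, 1.03 and 0.692 for 3mo IOP, 2.21 and 3.29 in 18mo control, and 2.75 and 4.02 in 18mo IOP. In the repeated series it was 2.47 and 2.27 in 4xIOP control and 14.9 and 6.56 in 4xIOP. The ratio was high in both 18mo IOP libraries although their P2ry12 levels lay far apart. The transcripts are 3851 and 2356 bases long, and the libraries differed in their short-to-long ratio. With length and GC trends removed, the log2 fold changes with age in controls were 1.57 for Csf1r and 0.81 for P2ry12, closer together than 2.21 and 0.076 as deposited.

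**Figure D4:**
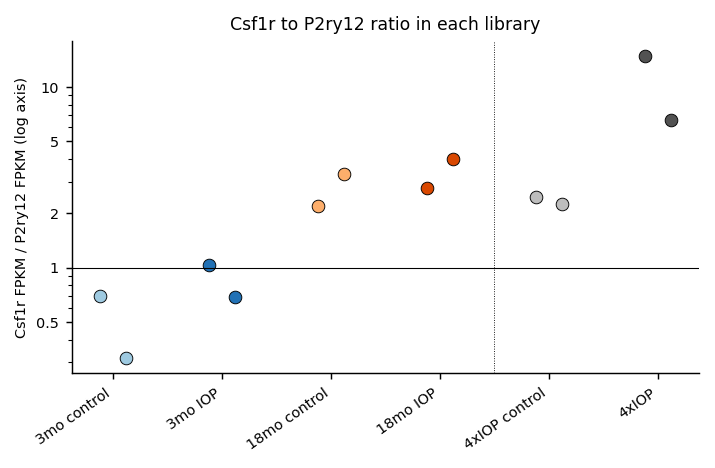
Ratio of Csf1r to P2ry12 FPKM (log axis) in each of the 12 libraries, with a line at equal levels and a dotted line between the series. All 18-month libraries lie above all libraries of the 3-month single-elevation groups, and both 4xIOP libraries (14.9 and 6.56) lie above their controls.

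Genes of other immune cells moved with the members in 4xIOP. The 13 monocyte and neutrophil markers summed to 0.178 and 0.619 FPKM in 4xIOP control and to 56.7 and 62.5 FPKM in 4xIOP, and 6 of the 13 were listed at 0 in both controls. The 7 of the 13 that were tested, all called higher, had passed the filter through 4xIOP alone, so their count is no support. Ccr2, the monocyte chemokine receptor, went from 0.0140 and 0.0130 FPKM to 4.18 and 3.03 FPKM, S100a8 from 0.130 and 0 FPKM to 20.2 and 26.5 FPKM, and Cxcr2 was listed at 0 in both controls and at 0.943 and 0.895 FPKM in 4xIOP, while the neutrophil gene Retnlg was listed at 0 in 4xIOP (chosen after their values were seen). Border macrophage markers summed to between 2.42 and 3.53 FPKM and between 11.7 and 19.7 FPKM, and their 4 called genes had likewise passed the filter through 4xIOP alone. Lens markers summed to 53.1 and 117 FPKM in 4xIOP against 0.489 and 4.78 FPKM. Pigment epithelium markers summed to 2.66 to 5.76 FPKM against 25.7 to 35.4 FPKM, with 3 of 3 tested called lower, and rod markers to 4668 to 7017 FPKM against 9448 to 9874 FPKM, with 0 of 7 called. The part of these cells in the members' change was not tested.

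All 14 pan-myeloid genes were called higher in 4xIOP, 8 of them passing the filter without the treated libraries, from 1.61 to 3.78 on the log2 scale, with C1qa at 3.33, Ctss, a lysosomal protease gene, at 3.71 and Tyrobp, an adaptor of immune receptors, at 3.78. From the second homeostatic list 4 of 7 tested genes were called higher, with P2ry6 at 1.67. Of the 4, 3 passed the filter through 4xIOP alone, P2ry6 among them. Among activation genes 14 of 19 were called higher, led by Cd52 (4.58), Lgals3 (2.95) and Clec7a (2.86). Of the 14, 5 passed the filter through 4xIOP alone, Clec7a among them. Of 10 tested transcription factor genes, 4 were called higher, all through 4xIOP alone, among them Irf8 (2.71), Spi1 (1.95) and Irf5 (1.64), and 1 lower, Mef2c (-1.05, adjusted p = 0.0241), named after its value was seen. Csf1 was at 0.376 and 0.418 FPKM in the controls and at 2.93 and 2.03 FPKM in 4xIOP (1.72, adjusted p = 0.000312). It passed the filter through 4xIOP alone, so its call is no support. Il34 (0.33, adjusted p = 0.741) and Cx3cl1 (0.17, adjusted p = 0.883) were not called.

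The genes outside the lists whose profile over the 12 libraries lay nearest to the mean profile of the 7 members tested in both tables were Ptgs1, Bin2, Arhgap45, Hvcn1 and Evi2a. Their root-mean-square difference on the log2(FPKM + 0.5) scale, each centred within its table, was 0.164 for Ptgs1 and 0.248 to 0.256 for the others, where the median over 12945 genes was 0.744. Tmem119 (0.217) and Olfml3 (0.244) lay nearest to that mean among the members and Fcrls (0.642) farthest. Ptgs1, the gene of cyclooxygenase-1, had 0.101 and 0.0730 FPKM in the young controls, 0.645 and 0.522 in 3mo IOP, 0.656 and 0.637 in 18mo control, and 1.63 and 0.507 in 18mo IOP. In the repeated series it went from 0.176 and 0.215 FPKM to 1.59 and 1.73 FPKM.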

How the data were processed

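Whole retinas were profiled by poly(A)-enriched, strand-specific RNA-seq. The authors aligned reads to mm10 with STAR 2.7.8a and counted exon tags on the transcribed strand with HOMER, 1 isoform per locus. The authors deposited FPKM, scaled by isoform length and library tags, in 1 table per series. Low values were whole multiples of 1 read, which gave the tags of each library (tolerance 0.15 of a read).

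Genes whose mean reached 0.5 FPKM in a table were tested as log2(FPKM + 0.5) with limma 3.58.1 (R 4.3.3, eBayes with trend), with 4 groups in the single-elevation table and 2 in the other. Fold changes are on that scale and understate changes of low genes. Calls needed an adjusted p (Benjamini-Hochberg, over all tested genes) no larger than 0.05 and a log2 fold change of 1 or more in size, except that the interaction needed the adjusted p only. The fit was tested on simulated data: of genes given a log2 change of 2, 87.8% were recovered for age in controls and 62.9% for 4xIOP, and of those given 1.5, 69.1% and 40.4%.

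The members and lists were chosen with earlier results of these data known. Named from the microglial lists were up to 3 called genes with the largest change or, where none was called, the 2 with the smallest p, of which some are given here. Csf1, Il34, Cx3cl1, Tgfb1, Spi1, Irf8 and C1qa were named beside them. Some genes are not reported here. Alternatives were other pseudocounts, filters, scaling, a fit without trend, calls by adjusted p only, fits of only 2 groups, removal of length (and GC) trends, voom, replicate blocks and leaving out each library. Counting intervals and limits cover counting error only.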

Additional observations from a re-analysis of the deposited data

How the results depend on the processing

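Of the 5 members called in 4xIOP, Tmem119 and Fcrls passed the filter through 4xIOP alone, so the count of 5 is no support. The 5 calls held under every alternative in which all 5 genes were tested, except with no filter on low values, where 0 members were called in any comparison (against 3, 2 and 5 in the age comparisons of controls and of treated eyes and in 4xIOP). In that setting, genes at 0 with no variance entered the shared estimate of the spread. With a mean of at least 2 FPKM, 3 members were tested in the single-elevation series and 4 in the repeated one, and the age comparison of treated eyes had 1 call. It also had 1 with length and GC trends removed, a setting chosen after seeing the data. Leaving out 1 library gave 0 to 2 calls in the age comparison of controls and 0 to 7 in that of treated eyes, and in each of these fits a lone library was assumed to vary like the others. The cause was not tested.

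Directions turned only for values that were not called as deposited. Size factors, which moved the median of all genes by 0.15 (age, controls), 0.19 (3mo IOP), 0.12 (18mo IOP) and 0.12 (4xIOP), put P2ry12 at -0.072 with age in controls and at -0.13 in 3mo IOP, and Gpr34 at -0.0074 in 18mo IOP. Gpr34 was at 0.082 with the length trend removed and 0.90 with length and GC trends removed (age, controls), at 0.47 with both removed (age, treated eyes), and in 18mo IOP at -0.019 with a pseudocount of 0.1 and -0.10 by voom. Siglech was at -0.031 with a pseudocount of 0.1 and -0.20 by voom (age, treated eyes).

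Leaving out 1 library in turn moved the log2 fold changes that changed sign over these ranges: for age in controls, P2ry12 from -0.22 to 0.37, Gpr34 from -0.38 to 0.23. For age in treated eyes, P2ry12 from -0.70 to 1.22, Tmem119 from -0.39 to 1.46, Siglech from -1.02 to 1.35, Olfml3 from -0.071 to 1.46, Gpr34 from -1.46 to 0.66. For 3mo IOP, P2ry12 from -0.25 to 0.35. For 18mo IOP, Tmem119 from -1.02 to 0.82, P2ry12 from -0.73 to 1.20, Cx3cr1 from -0.38 to 0.86, Csf1r from -0.31 to 1.31, Gpr34 from -0.97 to 1.15, Olfml3 from -0.13 to 1.41, Siglech from -1.57 to 0.80.

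With same-numbered libraries as a replicate block, the counts of called members were 3, 2, 0, 0, 0 and 5 (age in controls, age in treated eyes, 3mo IOP, 18mo IOP, interaction, 4xIOP), as without it. The labels do not tie a number to an animal, and deviations of same-numbered libraries correlated at -0.28, -0.53 and -0.29. With the crossed pairing as a block, chosen after seeing the data, 2 members were called in 3mo IOP, 1 in 18mo IOP, 0 in the interaction and 5 in 4xIOP, with 298 genes in all called higher in each of the single-elevation comparisons (78 and 16 without a block).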
